A study of Mus musculus with 8 samples.

Results

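The creatine kinases *Ckm*, *Ckmt2* and *Ckb*, the adenylate kinase *Ak1*, myoglobin (*Mb*), the creatine transporter *Slc6a8* and the enzymes of creatine synthesis *Gatm* and *Gamt* were followed in the hearts of mouse embryos at E18.5. Every non-control probe whose accession maps to one of these 8 genes was kept. This gave 9 of the 41174 probes on the array, with *Ckb* measured by a pair of probes and each other gene by 1. The arrays were one-color Agilent whole mouse genome arrays carrying the heart RNA of 4 WT and 4 SIRT1 KO embryos, 1 heart per array, labelled from 500 ng of total RNA. SIRT1 KO embryos lack the deacetylase SIRT1 in the whole body through a germ-line deletion. Every cell type of the heart carries it, and the comparison is not restricted to cardiomyocytes. Both genotypes are C57BL/6 in the labels and C57BL/6J in the study's methods, came from matings between heterozygous parents, were untreated and descend from mice on chow diet. Compared here between the genotypes are the transcripts whose proteins carry high-energy phosphate and oxygen through the late fetal heart.

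Heart muscle makes ATP in mitochondria and spends it at myofibrils and ion pumps. Mitochondrial creatine kinase passes the phosphate of new ATP to creatine, and phosphocreatine diffuses through the cell. Cytosolic creatine kinase returns the phosphate to ADP at the site of use, and adenylate kinase moves phosphate between adenine nucleotides alongside it. Creatine itself is made from arginine and glycine by GATM and methylated by GAMT, mostly in kidney and liver of the adult, and muscle takes it up through SLC6A8. As the heart matures, the brain-type kinase CKB gives way to the muscle type CKM and the mitochondrial type CKMT2, and myoglobin serves as the oxygen store of the muscle cell.

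None of the 9 probes passed an adjusted p of 0.05 with limma, against 4.91% of all 25624 probes tested (3.98% in the direction of higher signal with SIRT1 KO and 0.921% in that of lower). At an unadjusted p under 0.05 limma gave 4 of the 9, both *Ckb* probes, *Gamt* and *Gatm*, beside 21.5% of all probes, and the analysis of variance of the study's methods passed 0 of the 9 after adjustment. Of the 8 genes 5 were lower and 3 higher, with log2 fold changes from -0.41 for *Ckb* to 0.30 for *Gamt*. Their median was -0.09, against -0.01 over all named genes by the brightest probe. A log2 fold change is the mean of the hearts labelled SIRT1 KO minus the mean of the WT hearts, and a log2 signal is given relative to the 75th percentile of its own array. All 9 probes were well above background on every array.

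The promoters of *Ckm* and *Ckb*, the muscle and the brain type of the same cytosolic enzyme, and of *Gatm* and *Gamt*, the consecutive steps of creatine synthesis, are shown because *Ckb*, *Gatm* and *Gamt* are the 3 genes with an unadjusted p under 0.05 and *Ckm* is the muscle counterpart of *Ckb*. Each is the 250 bases before the RefSeq transcription start on GRCm38.p6, written 5′ to 3′ on the gene's strand. They lie at chr7:19410844-19411093 on the plus strand for *Ckm*. On the minus strand they lie at chr12:111672339-111672588 for *Ckb*, chr2:122611278-122611527 for *Gatm* and chr10:80261013-80261262 for *Gamt*. Capitals mark matches, on either strand, to the TATA box core TATAAA, the muscle-type E-box CAGCTG, the half-site AAGGTCA of the estrogen-related receptors and the CCAAT box CCAAT.
Ckm: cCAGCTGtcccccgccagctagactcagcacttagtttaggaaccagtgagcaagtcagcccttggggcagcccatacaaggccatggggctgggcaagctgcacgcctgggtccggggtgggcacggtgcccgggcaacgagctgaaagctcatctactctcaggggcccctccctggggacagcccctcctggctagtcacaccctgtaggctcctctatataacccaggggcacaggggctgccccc
Ckb: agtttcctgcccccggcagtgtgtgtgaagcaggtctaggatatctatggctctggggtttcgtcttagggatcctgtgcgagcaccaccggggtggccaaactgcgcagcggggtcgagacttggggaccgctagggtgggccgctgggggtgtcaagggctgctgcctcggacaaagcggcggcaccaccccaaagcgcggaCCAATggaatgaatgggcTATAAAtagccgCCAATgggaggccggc
Gatm: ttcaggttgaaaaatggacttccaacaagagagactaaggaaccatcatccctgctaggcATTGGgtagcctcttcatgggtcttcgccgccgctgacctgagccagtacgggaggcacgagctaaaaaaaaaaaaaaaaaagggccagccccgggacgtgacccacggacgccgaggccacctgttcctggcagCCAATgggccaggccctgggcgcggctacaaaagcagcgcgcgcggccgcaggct
Gamt: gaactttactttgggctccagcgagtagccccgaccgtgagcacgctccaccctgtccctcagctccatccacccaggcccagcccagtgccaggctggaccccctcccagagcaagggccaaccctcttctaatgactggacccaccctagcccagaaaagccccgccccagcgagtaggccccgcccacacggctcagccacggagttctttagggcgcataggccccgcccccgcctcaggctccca
The *Ckm* window holds 1 CAGCTG, from 249 to 244 bases before the start, a motif found in 13.0% of the 32851 RefSeq windows of this length. The *Ckb* window holds TATAAA from 28 to 23 bases before the start, found in 12.4% of windows, between a pair of CCAAT matches at 46 to 42 and at 16 to 12 bases. CCAAT occurred in 33.8% of windows and is present in the *Gatm* window too, from 190 to 186 bases before the start on the opposite strand and from 55 to 51 bases. The *Gamt* window holds none of the 4 motifs, and AAGGTCA, in 4.08% of all windows, is in none of the 4 sequences shown. These matches describe letters in the windows and say nothing of binding in these hearts.

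The genotypes are taken from the labels. On the brighter of the *Sirt1* probes (A_52_P358612) the log2 signal lay between -0.14 and 0.32 in the WT hearts and between 0.43 and 0.75 in those labelled SIRT1 KO, and it differed by 0.54 (limma adjusted p = 0.0323). On the other (A_51_P141152) the difference was -0.11 (limma adjusted p = 0.589). So neither passed the threshold as lower with SIRT1 KO, and where these probes lie relative to the deletion is not analysed here. The 4 arrays of each genotype share a slide and a scan, so genotype cannot be told apart from slide or scan, and a slide holds no comparison of its own. The labels number the samples of a genotype without naming litters, so p-values measure the spread between these 4 hearts. All 16 cardiomyocyte markers were tested. Their summed linear level, in units of the array's 75th percentile, was 2498 to 2727 in the WT hearts and 2520 to 2982 in those labelled SIRT1 KO. The liver markers stood apart in 2 of the hearts labelled SIRT1 KO, with sums of 128 in replicate 1 and 67.4 in replicate 4, against 14.1 and 19.9 in the remaining pair and 11.8 to 29.5 in the WT hearts.

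*Ckm*, the muscle-type cytosolic creatine kinase that sits at the M-band of the myofibril, had log2 signals of 5.62, 5.23, 5.35 and 5.39 in WT replicates 1 to 4. It had 5.35, 5.25, 5.47 and 4.97 in SIRT1 KO replicates 1 to 4. The genotypes overlapped, with WT replicate 1 the highest and SIRT1 KO replicate 4 the lowest of the 8 hearts. The mean difference, as a log2 fold change, was -0.14 (95% confidence interval -0.42 to 0.14, limma adjusted p = 0.553, exact two-sided permutation test p = 0.371), and the linear signal with SIRT1 KO was 91.1% ± 6.48 (SEM, n = 4) of the WT mean. The log2 fold change was -0.04 without SIRT1 KO replicate 4 and -0.07 without WT replicate 1. *Ckm* is also a transcript of skeletal muscle, and of the 21 skeletal muscle markers 13 were tested, with sums of 170 to 200 in the WT hearts and 188 to 229 in those labelled SIRT1 KO. *Myh8* alone made up 51.3% to 55.6% of each sum. Without it the sums were 78.7 to 91.0 in the WT hearts and 85.1 to 109 in those labelled SIRT1 KO. Of the 13, 9 were higher and 4 lower, and 3 passed the threshold, where 4.62% of all genes did by their brightest probe. *Tnni2* (0.62), *Cacna1s* (0.49) and *Myog* (0.52) were higher past the threshold (adjusted p = 0.0225, 0.0255 and 0.0290 from limma). The markers *Myod1*, *Myf5*, *Myf6*, *Myh2*, *Actn3*, *Ryr1*, *Mybpc1* and *Cacng1* were too dim to be tested. The part of skeletal muscle in the *Ckm* signal was not tested.

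*Ckmt2*, the sarcomeric mitochondrial creatine kinase at the start of the shuttle, had log2 signals of 5.42, 5.11, 5.42 and 5.20 in the WT hearts, and of 5.10, 4.79, 5.30 and 4.98 in those labelled SIRT1 KO. In 3 hearts labelled SIRT1 KO it lay below all 4 WT hearts, and replicate 3 lay among them. The log2 fold change was -0.25 (standard error 0.12, 95% confidence interval -0.52 to 0.03, limma adjusted p = 0.283, exact two-sided permutation test p = 0.114), or 84.6% ± 6.21 (SEM, n = 4) of the WT mean in linear signal, and it was -0.16 without SIRT1 KO replicate 2. In a bulk heart, fewer cells of a type and less RNA per cell cannot be told apart, here and for every gene below.

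*Ckb*, the brain-type kinase that is prominent in the embryonic heart and in smooth muscle and neurons, had the lowest log2 fold change of the 8 genes. On its brighter probe (A_51_P425772) the log2 signals were 5.05, 4.85, 4.90 and 4.65 in the WT hearts and 4.58, 4.38, 4.71 and 4.13 in those labelled SIRT1 KO. On its dimmer probe (A_52_P385606) they were 3.02, 2.53, 2.83 and 2.73 in the WT hearts and 2.58, 2.23, 2.57 and 2.24 in those labelled SIRT1 KO. On the brighter probe only WT replicate 4 and SIRT1 KO replicate 3 crossed, and on the dimmer probe WT replicate 2 lay among the hearts labelled SIRT1 KO. The log2 fold changes were -0.41 (standard error 0.14, 95% confidence interval -0.72 to -0.10) and -0.37 (standard error 0.13, 95% confidence interval -0.66 to -0.08). Their adjusted p-values from limma were 0.130 and 0.145, from unadjusted values of 0.0146 and 0.0185, and the exact two-sided permutation test gave 0.0571 and 0.0857. The linear signals with SIRT1 KO were 75.7% ± 6.38 and 77.3% ± 5.18 (SEM, n = 4) of the WT means. The probes share a gene and are not replicates of each other. The deviations of the 8 hearts from their genotype means on one probe had r = 0.743 with those on the other. Of the 8 smooth muscle markers, all tested, 7 were lower and 1 higher, none past the threshold, with a median of -0.11. They summed to 185 to 231 in the WT hearts and 173 to 241 in those labelled SIRT1 KO, and without *Acta2*, the higher one and 53.2% to 61.0% of each sum, to 82.4 to 106 and 73.5 to 99.1. The 7 of 10 neural and glial markers tested summed to 1.10 to 1.30 and 1.25 to 1.41, 6 of them higher and 1 lower (*Elavl4*, -0.46, limma adjusted p = 0.0606). Of these 7 only *Sox10* passed the threshold (0.80, limma adjusted p = 0.0198), beside 4.62% of all genes by their brightest probe. At an unadjusted p under 0.05 limma gave 5 of the 7, beside 20.4% of all genes. *Sox10* was dim, with mean log2 signals of -4.69 in the WT hearts and -3.89 in those labelled SIRT1 KO. The part of smooth muscle, neural and glial transcripts in the *Ckb* signal was not tested.

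**Figure D1:**
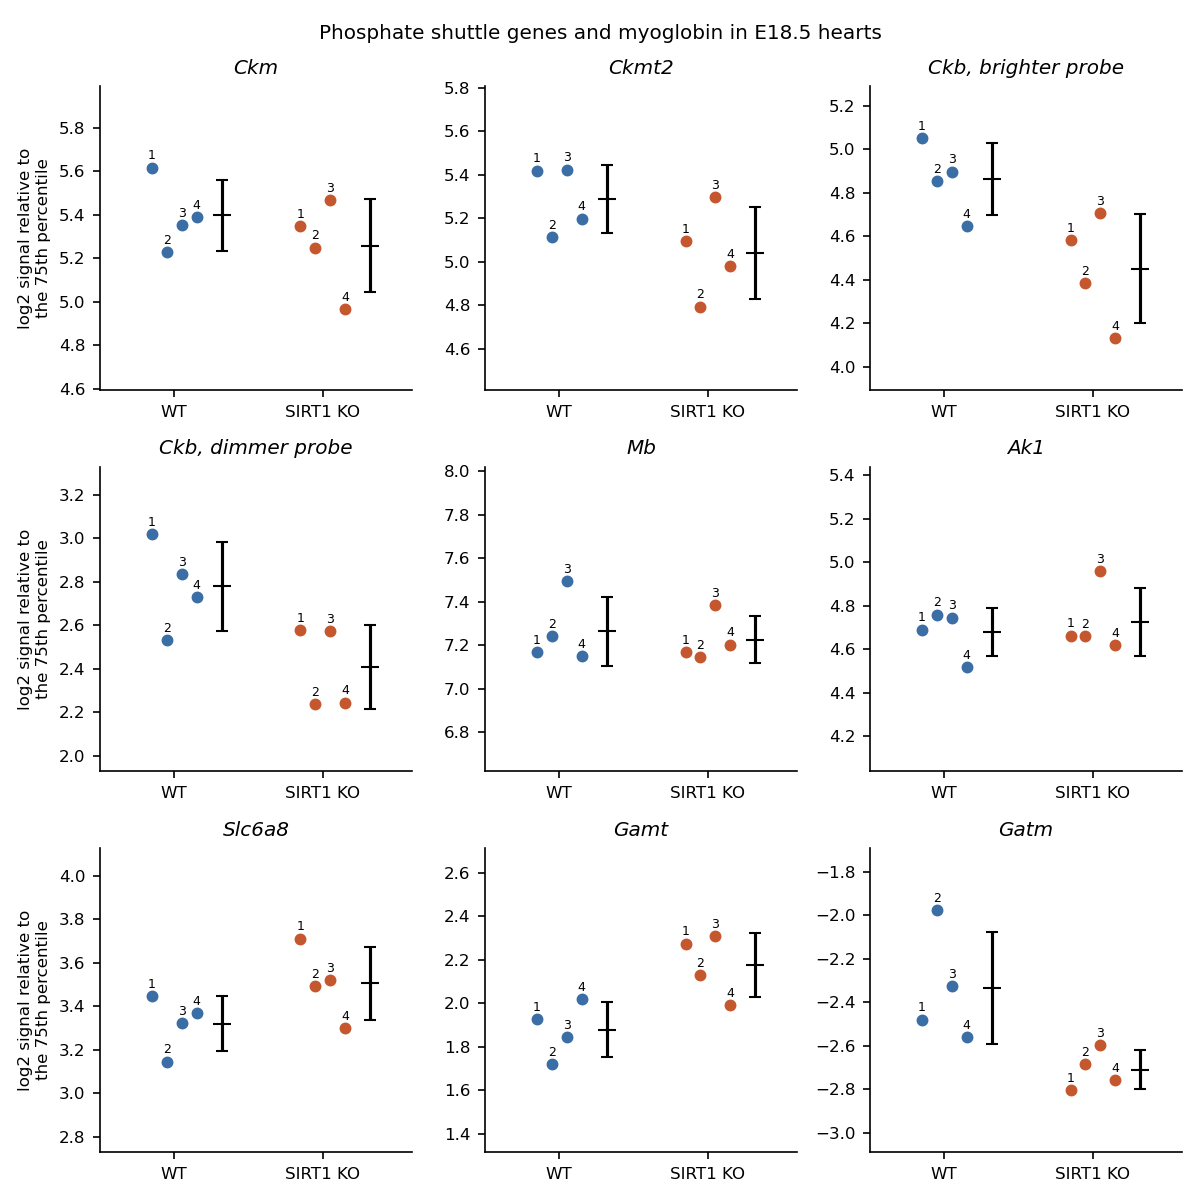
Log2 signal relative to the array's 75th percentile (vertical axes, each spanning the same log2 range) for the 9 probes in the 4 WT and 4 SIRT1 KO hearts, with points numbered by replicate and bars giving the mean ± SD. The *Gatm* panel is the only one in which no SIRT1 KO heart reaches a WT heart, and the genotypes overlap in the 8 other panels.

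*Ak1*, the cytosolic adenylate kinase of muscle and red cells, had log2 signals of 4.69, 4.76, 4.75 and 4.52 in the WT hearts, and of 4.66, 4.66, 4.96 and 4.62 in those labelled SIRT1 KO. SIRT1 KO replicate 3 stood above the 7 other hearts, and the 3 others of its genotype lay within the WT range. With SIRT1 KO minus WT the log2 fold change was 0.05 (95% confidence interval -0.18 to 0.27, limma adjusted p = 0.822, exact two-sided permutation test p = 0.657), which in ratios spans 0.885 to 1.21. Its sign turned negative with median scaling, without scaling and when WT replicate 4 or SIRT1 KO replicate 3 was left out. Erythroid markers, 6 of 10 tested and none past the threshold, summed to 220 to 261 in the WT hearts and 174 to 216 in those labelled SIRT1 KO. These sums did not overlap, as 13.8% of all probes did not, but *Hba-a1*, an alpha globin, made up 95.6% to 97.1% of each. Without it the sums were 6.34 to 8.55 in the WT hearts and 5.52 to 9.45 in those labelled SIRT1 KO, and 2 of the 6 genes were higher and 4 lower. The part of these transcripts in the *Ak1* signal was not tested.

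*Mb*, the oxygen-binding haem protein of muscle cytoplasm, had log2 signals of 7.17, 7.24, 7.50 and 7.15 in the WT hearts, and of 7.17, 7.14, 7.39 and 7.20 in those labelled SIRT1 KO. In both genotypes replicate 3 was the highest and the remaining hearts lay within a narrow band that the genotypes shared. Its log2 fold change was -0.04 (standard error 0.10, 95% confidence interval -0.26 to 0.18, limma adjusted p = 0.854, exact two-sided permutation test p = 0.6), and it was 0.04 without WT replicate 3 and -0.12 with array weights. The interval corresponds to ratios from 0.834 to 1.14, and the linear signal with SIRT1 KO was 97.1% ± 3.78 (SEM, n = 4) of the WT mean. The intensities of this probe ran from 127303 to 182725 units over the 8 hearts, and no spot of the arrays was marked as saturated.

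*Slc6a8*, the sodium- and chloride-dependent creatine transporter of the plasma membrane, had log2 signals of 3.45, 3.15, 3.32 and 3.37 in the WT hearts, and of 3.71, 3.49, 3.52 and 3.30 in those labelled SIRT1 KO. In 3 hearts labelled SIRT1 KO it lay above every WT heart and replicate 4 lay among them. Its log2 fold change was 0.18 (95% confidence interval -0.05 to 0.42, limma adjusted p = 0.343, exact two-sided permutation test p = 0.143), or 114% ± 6.64 (SEM, n = 4) of the WT mean, and without scaling between arrays it was -0.03. Without SIRT1 KO replicate 1 it was 0.12, with normexp background correction 0.09 and with median scaling 0.05.

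*Gatm*, the mitochondrial arginine:glycine amidinotransferase that makes guanidinoacetate in the first step of creatine synthesis, had log2 signals of -2.48, -1.98, -2.33 and -2.56 in the WT hearts, and of -2.80, -2.68, -2.60 and -2.76 in those labelled SIRT1 KO. It was the only one of the 9 probes on which the genotypes did not overlap (13.8% of all probes, and 5.09% with SIRT1 KO wholly below and 8.66% wholly above), and the gap between WT replicate 4 and SIRT1 KO replicate 3 was narrow. The log2 fold change was -0.38 (standard error 0.13, 95% confidence interval -0.66 to -0.09, limma adjusted p = 0.135), and the exact two-sided permutation test gave p = 0.0286, which 4 against 4 cannot go below. The linear signal with SIRT1 KO was 76.3% ± 2.39 (SEM, n = 4) of the WT mean. This was the dimmest of the 9 probes, with intensities from 128 to 262 units, and the WT hearts spread more widely (SD 0.26) than those labelled SIRT1 KO (SD 0.09). With normexp background correction on the median signal, added after the data were seen, its log2 fold change was -0.19, and with median scaling it passed the threshold at -0.51 (limma adjusted p = 0.0469; 0.0230 to 0.263 over the alternatives).

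*Gamt*, the guanidinoacetate methyltransferase of the second step, had log2 signals of 1.93, 1.72, 1.85 and 2.02 in the WT hearts, and of 2.28, 2.13, 2.31 and 1.99 in those labelled SIRT1 KO. SIRT1 KO replicate 4 lay just under WT replicate 4, and the other hearts did not cross. The log2 fold change was 0.30 (standard error 0.10, 95% confidence interval 0.07 to 0.52, limma adjusted p = 0.129, exact two-sided permutation test p = 0.0571), or 123% ± 6.08 (SEM, n = 4) of the WT mean. *Gamt* is measured by 10 spots on each array, averaged here, and was the highest of the 8 genes in log2 fold change. Liver expresses *Gamt* strongly, and the hearts labelled SIRT1 KO with the high liver marker sums held the second highest value of their genotype (replicate 1, 2.28) and its lowest (replicate 4, 1.99). Without SIRT1 KO replicate 1 the log2 fold change was 0.27 and without SIRT1 KO replicate 4 it was 0.36, and the part of the liver markers was not tested.

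Differences between 2 genes on the same array are the same under every scaling that shifts an array by 1 constant, such as the 75th percentile, but not under quantile normalization or cyclic loess. Their level has no meaning, because probes differ in brightness, and only the shift between genotypes is described, without a test. *Ckm* minus *Ckb*, the muscle against the brain type, was 0.57, 0.37, 0.45 and 0.74 in the WT hearts and 0.76, 0.86, 0.76 and 0.83 in those labelled SIRT1 KO. The difference was thus higher in every heart labelled SIRT1 KO, by 0.27 on the log2 scale or a ratio of 1.21, and by 0.28 with quantile normalization and 0.27 with cyclic loess. With normexp background correction the shift was 0.30 and the genotypes overlapped. *Gatm* minus *Gamt* was -4.41, -3.70, -4.17 and -4.58 in the WT hearts and -5.08, -4.81, -4.91 and -4.75 in those labelled SIRT1 KO. Here the hearts labelled SIRT1 KO were lower throughout, by -0.67 on the log2 scale or a ratio of 0.627, with normexp (-0.46) as well. The shift was -0.77 with quantile normalization and -0.75 with cyclic loess. *Gatm* was already the only probe without overlap and *Gamt* the highest in log2 fold change, so this separation largely restates their own values. How often differences between other pairs of genes separate the genotypes was not counted, here or for *Ckm* minus *Ckb*. *Ckm* minus *Ckmt2*, the myofibrillar against the mitochondrial kinase, shifted by 0.11 and *Mb* minus *Ckm* by 0.10, both with overlapping genotypes. These shifts were smaller than the SD within either genotype, and they were 0.03 for the former without SIRT1 KO replicate 2 and -0.0049 for the latter, with its sign turned, without WT replicate 1.

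**Figure D2:**
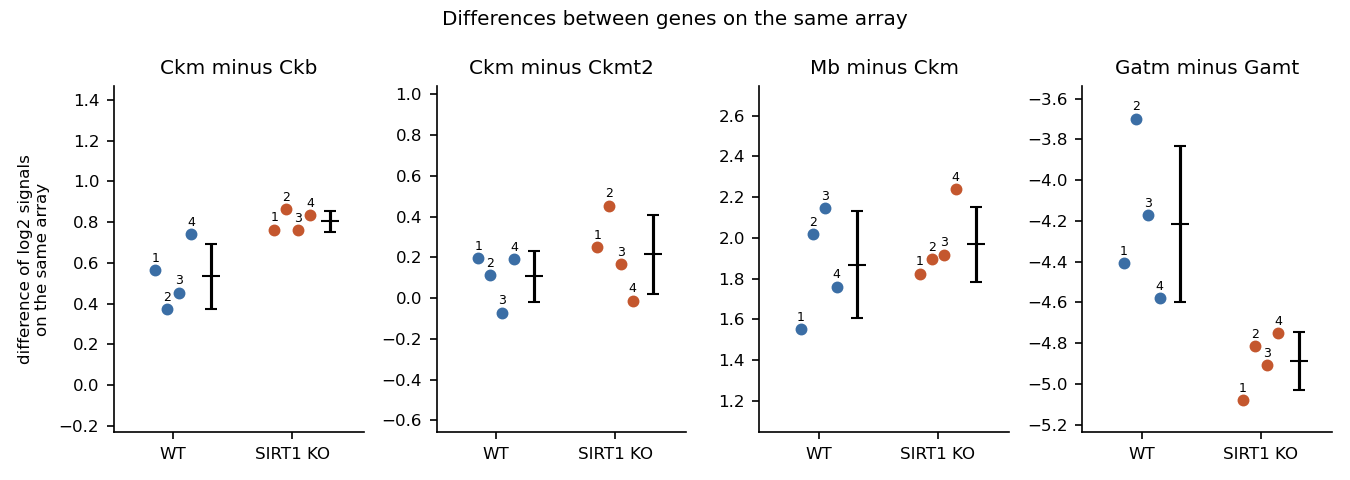
Differences of log2 signals between 2 genes on the same array (vertical axes, log2 units) in the 4 WT and 4 SIRT1 KO hearts, numbered by replicate, with bars giving the mean ± SD. *Ckm* minus *Ckb* is higher and *Gatm* minus *Gamt* lower in all 4 SIRT1 KO hearts, and the other panels overlap. How often other pairs of genes separate in this way was not counted.

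The scaling between arrays bears on all 9 probes. The 75th percentile itself was 939 to 1033 intensity units for WT and 777 to 906 for SIRT1 KO. In the unscaled signal 6 of the 9 probes (*Ckm*, *Ckmt2*, both *Ckb* probes, *Mb* and *Gatm*) were lower in every heart labelled SIRT1 KO, where 28.8% of all probes were. Over all probes the median log2 fold change moved from 0.01 to -0.12 with median scaling and to -0.21 without scaling. These 3 settings shift every probe of an array alike and so leave the order of the 9 probes as it was, with *Gamt* the highest and *Ckb* on its brighter probe the lowest. Under quantile normalization and cyclic loess *Gamt* was again the highest and *Gatm* the lowest (-0.45 and -0.42), with the brighter *Ckb* probe at -0.38 under both. Without scaling, *Ckmt2* (-0.47), both *Ckb* probes (-0.63 and -0.59) and *Gatm* (-0.59) passed the threshold, and the values were -0.36 for *Ckm*, -0.26 for *Mb* and 0.08 for *Gamt*, which did not.

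**Figure D3:**
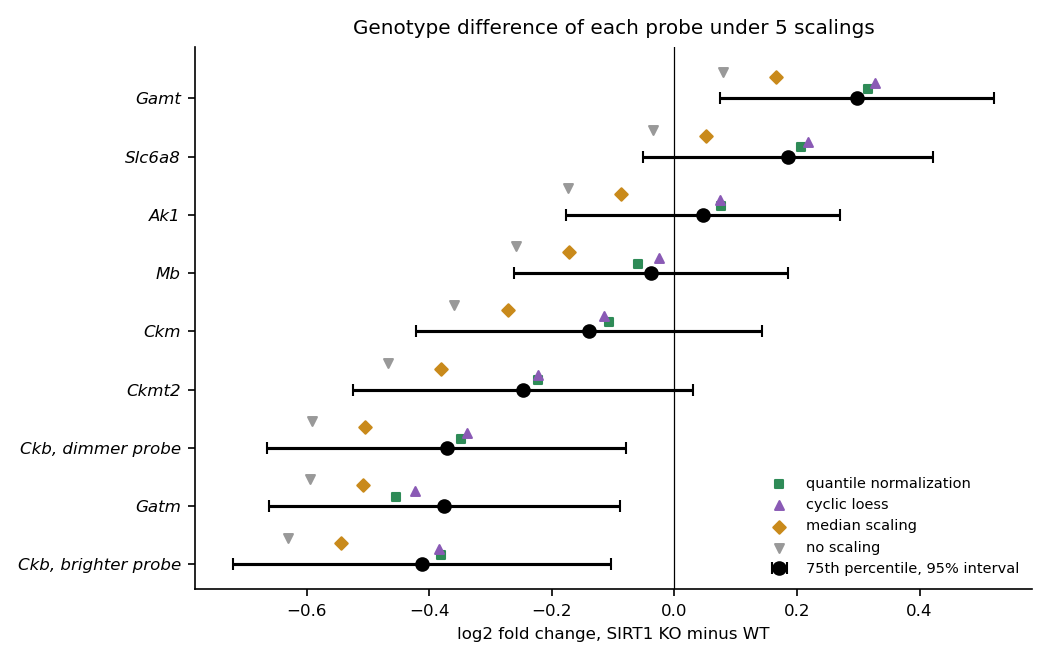
Log2 fold change of each probe, SIRT1 KO minus WT (horizontal axis), with the 75th percentile scaling and its 95% confidence interval (black circles and bars) and under 4 other scalings (coloured symbols). *Gamt* lies to the right of 0 and *Ckm*, *Ckmt2*, *Ckb*, *Mb* and *Gatm* to the left under all 5, while *Ak1* and *Slc6a8* cross 0.

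Brightness was also set beside these values. The tested probes were divided by mean signal into 10 classes of equal size. The median log2 fold change went from 0.17 in the dimmest class to -0.03 in the brightest, and the share past the threshold from 11.2% to 1.44%. The probes of *Ckm*, *Ckmt2*, *Mb*, *Ak1* and *Slc6a8* and the brighter *Ckb* probe, 6 of the 9, lie in the brightest class, number 10. The dimmer *Ckb* probe and *Gamt* lie in class 9, and *Gatm* in class 4, whose median was 0.03. Of the markers named above as past the threshold, *Myog* lies in the dimmest class and *Sox10* was dim too.

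**Figure D4:**
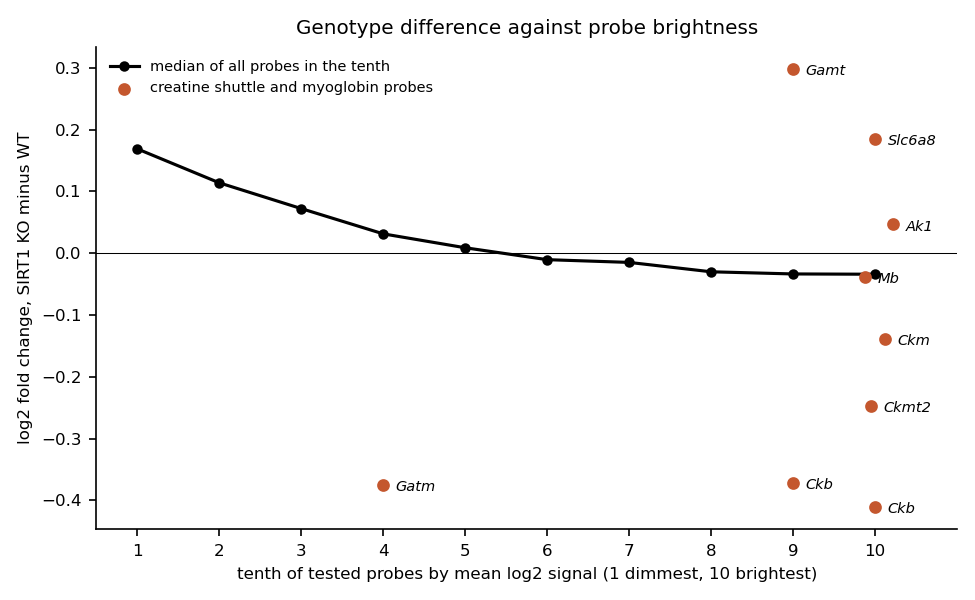
Log2 fold change, SIRT1 KO minus WT (vertical axis), of the 9 probes (orange, spread slightly sideways for legibility) against the class of all tested probes by mean log2 signal (horizontal axis, 1 dimmest to 10 brightest), with the median of each class in black. *Gamt*, *Slc6a8* and *Ak1* lie above the median of their class and *Ckb*, *Ckmt2*, *Gatm*, *Ckm* and, only just, *Mb* below it.

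Around the shuttle stand the other nucleotide kinases, the mitochondrial carriers and channels that pass ATP and phosphate, and the subunits of AMP-activated kinase. They formed a list of 38 genes, of which 35 were tested on their brightest probe. None passed the threshold with limma (4.62% of all genes by this probe, 3.71% higher and 0.912% lower), 8 of the 35 had an unadjusted p under 0.05 (20.4% of all genes by this probe), and 21 were lower and 14 higher, with a median of -0.06. *Cmpk1*, the cytosolic kinase of pyrimidine monophosphates, had log2 signals of 1.63, 1.79, 1.62 and 1.65 in the WT hearts and of 1.46, 1.36, 1.45 and 1.15 in those labelled SIRT1 KO, without overlap (log2 fold change -0.32, standard error 0.09, limma adjusted p = 0.0853). *Nme1*, a nucleoside diphosphate kinase, did not overlap either (-0.27, standard error 0.09, limma adjusted p = 0.133). Among the 35 no other gene was without overlap, where 13.8% of all probes were. *Ak5*, an adenylate kinase best known from brain, was well above background on 3 WT arrays and 1 labelled SIRT1 KO, and so was tested mainly through the WT hearts. It did not pass the threshold (limma adjusted p = 0.0626), and no size is given for it. Quantile normalization and cyclic loess each passed 1 gene of this list, *Ak5* with that same limit, and median scaling passed 3.

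The supply of arginine, glycine and methyl groups for creatine synthesis was covered by 17 genes, 14 of them tested. None passed the threshold, 5 of the 14 had an unadjusted p under 0.05 beside 20.4% of all genes, and 7 were higher and 7 lower, with a median of 0.01. *Slc6a6*, the taurine transporter of the same family as *Slc6a8*, was lower without overlap on its brighter probe (-0.22, standard error 0.06, limma adjusted p = 0.100) and had -0.09 on the other. On 13.8% of all probes the genotypes did not overlap. *Gnmt*, the glycine N-methyltransferase that competes for the methyl donor, had 0.56 (standard error 0.21, limma adjusted p = 0.173), and *Mat2b*, a subunit of the enzyme that makes that donor, had -0.19 (limma adjusted p = 0.181).

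Proteins that hold creatine kinase at the M-band, other globins and the enzymes of haem made up 14 genes, all tested, of which 1 passed, beside 4.62% of all genes. *Ngb*, the globin known as neuroglobin, rose by 0.68 on the log2 scale (standard error 0.12, limma adjusted p = 0.0139), from signals between -3.77 and -3.29 in the WT hearts to signals between -2.91 and -2.66 in those labelled SIRT1 KO, and it did not pass by the methods' analysis of variance. *Myom2*, the M-band protein myomesin 2, was higher without overlap at 0.31 (standard error 0.08, limma adjusted p = 0.0688), where 13.8% of all probes were without overlap. *Fech*, which inserts iron into haem, had 0.39 (limma adjusted p = 0.117). The median of the list was 0.04, with 9 genes higher and 5 lower.

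Transcription factors and coactivators known to act on *Ckm*, *Mb* and oxidative genes formed a list of 23 genes, 21 of them tested. None passed on its brightest probe, 2 of the 21 had an unadjusted p under 0.05 beside 20.4% of all genes, and 11 were lower and 10 higher, with a median of -0.02. *Mef2a*, a factor that binds muscle enhancers, was higher without overlap (0.19, limma adjusted p = 0.192), as the genotypes did not overlap on 13.8% of all probes. *Tead1*, which binds the M-CAT element of muscle genes, had -0.16 (limma adjusted p = 0.337). *Esrrg*, the estrogen-related receptor gamma of oxidative muscle, gave different answers on its probes, 0.81 (limma adjusted p = 0.00345) on the dimmer and -0.02 (limma adjusted p = 0.909) on the brighter.

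**Figure D5:**
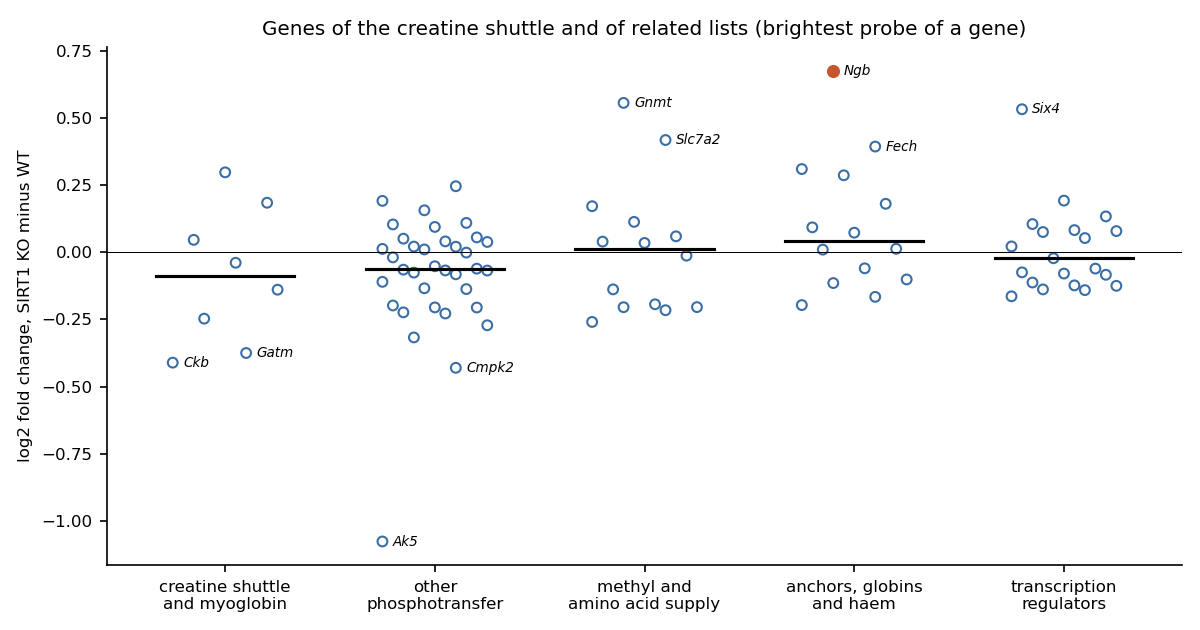
Log2 fold change, SIRT1 KO minus WT (vertical axis), of the brightest probe of each gene (circles, filled where past the threshold) in the creatine shuttle with myoglobin and in the 4 related lists, with black lines at the medians; 1 regulator is not drawn. The median of each of the 5 groups lies within 0.1 of 0, and *Ngb* is the filled point. *Ak5* was well above background on 4 of the 8 arrays, so its place has no exact size.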

How the data were processed

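Heart RNA of 4 WT and 4 SIRT1 KO embryos was hybridized to one-color arrays, and the authors deposited each array's intensity values as Agilent Feature Extraction (version 12 in the submitters' notes, 12.0.0.7 in the headers) wrote them, with background subtracted and arrays left unscaled. The deposited table of the whole series holds the same intensity in 100% of spots. Processed signals were put on a log2 scale relative to the 75th percentile of the array's non-control spots, and repeated spots were averaged without outliers. Accessions were matched without versions to RefSeq names of GRCm38.p6, which named 28223 probes (68.5%); the coordinates printed are those of that assembly.

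A filter kept the 25624 probes well above background on 4 or more arrays, which were fitted together in limma 3.58.1 (R 4.3.3; lmFit, eBayes) and Benjamini-Hochberg adjustment at 0.05. Single probes were also compared by the exact two-sided permutation test. An array had 24497 to 26747 such probes. In a simulation on 25544 probes, 83.5% of 200 probes changed by a log2 of 1 were recovered and 4.57% of calls were unchanged probes. The 8 genes had smaller log2 fold changes, from -0.41 to 0.30, so the share recovered does not apply to changes of their size. The simulated noise was independent between probes and held no slide effect. Python 3.11.15 was used with pandas 2.3.3, numpy 2.4.6 and, for plots, matplotlib 3.10.9.

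The 8 genes and the lists were chosen with earlier results of these data known, and the lists were compiled from general knowledge. Named are all 8 genes, in each further list every gene past the threshold and the 3 with the smallest p, in each marker list the gene with the smallest p, and, for each of the 8 genes, the gene whose deviations correlate best with its own. Other genes, such as the dimmer *Esrrg* probe and the skeletal muscle markers past the threshold beside the first, were named after their values were seen. Genes of this rule that are not reported here were left out of the text. Alternatives covered background, scaling, filter, test, array weights, the probe of a gene, a replicate block and each array left out. Normexp was planned on mean signals and run on median signals, which the files used here hold, with an offset of 50. Probe and protein sequences were not analysed here, so cross-hybridization between *Ckm*, *Ckb* and *Ckmt2* was not checked.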

Additional observations from a re-analysis of the deposited data

Results flagged for a closer look

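*Ak1* in SIRT1 KO replicate 3, with a log2 signal of 4.96, stood apart from the 3 other hearts of its genotype, at 4.62 to 4.66. The gap to the nearest of them was 0.871 of the range of the group, above Dixon's 95% critical value for 4 samples. It was the only one found in 26 groups of 4 values checked, and chance flags about 1 group in 20.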

How the results depend on the processing

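No probe of the 8 genes passed the threshold in any fit with 1 array left out (0 to 0), and the median over the 8 genes then lay between -0.15 and -0.04. Median scaling passed 1 probe (*Gatm*, -0.51) and gave a median of -0.22, and no scaling passed 4 (*Ckmt2* -0.47, *Ckb* -0.63 and -0.59, *Gatm* -0.59) with a median of -0.31. The sign turned for *Ak1* with median scaling (-0.086), without scaling (-0.17) and with 1 array left out (-0.032 to 0.082), for *Slc6a8* without scaling (-0.035), and for *Mb* with 1 array left out (-0.092 to 0.038). Over all probes, 1257 passed, against 2572 with normexp, 1909 with median scaling, 6351 without scaling, 550 by the methods' analysis of variance, 2291 with array weights and 660 to 1827 with 1 array left out (lowest without WT replicate 3, and under 1257 by over 1.5 times also without WT replicate 2, SIRT1 KO replicate 1 or SIRT1 KO replicate 2). The higher share of calls was 81.2%, against 10.1% without scaling, 35.6% with median scaling, 63.9% with quantile normalization, 71.5% with cyclic loess and 82.5% with normexp. The phosphotransfer list passed 1 gene (*Nme1*) with normexp, 1 (*Ak5*) with quantile normalization, 1 (*Ak5*, which met the filter mainly through the WT arrays) with cyclic loess, 3 with median scaling, 12 without scaling and 0 to 1 with 1 array left out (1 without SIRT1 KO replicate 2). The list of methyl and amino acid supply passed 2 with normexp, 2 with median scaling, 6 without scaling, 1 by the analysis of variance and 1 with array weights, and 0 to 0 with 1 array left out. The list of anchors, globins and haem enzymes passed 2 without scaling, 0 by the analysis of variance, 2 with array weights and 1 to 1 with 1 array left out, and the regulators passed 4 without scaling, 1 when any probe of a gene counts (*Esrrg*) and 0 to 0 with 1 array left out. The causes were not tested. Normexp, cyclic loess and the scalings of the differences between genes were added after the data were seen.

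The labels number the hearts of both genotypes 1 to 4, and the design text speaks of 4 pairs without tying them to the numbers. Same-numbered hearts deviated together with r = 0.20, 0.21, 0.06 and 0.14, against -0.18 to 0.09 for other numbers, and all 8 arrays correlated best with their own number. With 1 value under 0.1 the numbers were not taken as pairs, and this stands as a hint from the data. The p-values given with each gene above therefore make no use of the numbers. Within the numbers *Ckmt2*, both *Ckb* probes and *Gatm* were lower with SIRT1 KO in 4 of 4, and *Gamt* and *Slc6a8* higher in 3 of 4. The share of all probes with such directions was not counted, and a probe without overlap, such as *Gatm*, has 4 of 4 under any numbering. With the replicate number as a block, 1187 probes passed and 0 of the 9, with adjusted p-values from limma of 0.0543 and 0.0552 for *Ckb*, 0.103 for *Gatm* and 0.155 for *Gamt*.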

Other observations

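Within genotypes the 8 genes did not vary as 1 group. Over the deviations of the 8 hearts from their genotype means, *Ckm* had r = 0.83 with *Ckb*, 0.83 with *Gamt* and 0.81 with *Slc6a8*, but 0.06 with *Mb*. *Mb* had r = 0.71 with *Ak1*, and *Gatm* had r = -0.52 with *Gamt* and -0.57 with *Slc6a8*. The genes outside the lists whose deviations were most like those of each gene were *Pax1* for *Ckm* (r = 0.988, rho = 0.952), *Mecr* for *Ckmt2* (0.992, 0.976), *Scin* for *Ckb* (0.995, 1), *Add3* for *Mb* (0.963, 0.738), *H3c14* for *Ak1* (0.996, 0.976), *Ino80e* for *Slc6a8* (0.994, 0.976), *Atp6v1g2* for *Gamt* (0.980, 0.976) and *Clcn3* for *Gatm* (0.983, 0.952), all over 8 arrays. With so few arrays, between 40 probes (*Mb*) and 366 (*Ckm*) of 25543 had r above 0.9, and these values describe the arrays, which share processing and slide.

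Of the cardiomyocyte, smooth muscle and liver markers, the smallest p-values belonged to *Myh7* in cardiomyocytes (0.31, adjusted p = 0.136 from limma), *Myh11* in smooth muscle (-0.24, adjusted p = 0.206) and *Trf* in liver (1.05, adjusted p = 0.208), none of them past the threshold on the brightest probe of the gene, while a dimmer *Myh7* probe passed (0.36, adjusted p = 0.0283 from limma). Of the 16 cardiomyocyte markers 10 were higher and 6 lower, from -0.33 for *Nppa* to 0.47 for *Ttn*, with a median of 0.08. The 9 liver markers tested had higher means in the hearts labelled SIRT1 KO, with a median of 1.33 on the log2 scale. With limma 0 passed the threshold, beside 4.62% of all genes, and 1 had an unadjusted p under 0.05, beside 20.4%. SIRT1 KO replicates 1 and 4 held the high values, as in the sums. In SIRT1 KO replicate 2 the signal was above the WT mean for 9 of the 9, and in SIRT1 KO replicate 3 it was below for 8 of the 9.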
